A study of Mus musculus with 12 samples.

Results

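The 10 genes described here encode the machinery that presents peptides on major histocompatibility complex (MHC) class I molecules: B2m, H2-D1, H2-K1, Tap1, Tap2, Tapbp, Psmb8, Psmb9, Psmb10 and Nlrc5. They were picked by name from the 24421 gene symbols of the count files, and all 10 were among the 16364 symbols with enough reads to be tested. Sequencing covered the RNA of 12 mouse samples, in 4 groups with 3 libraries in each. The naive group is normal cortex of mice that had no injection. The other groups are brain tumours that grew after viruses of the RCAS type were injected into the skull. RCAS is an avian retroviral vector that enters mouse cells carrying its receptor. Each virus carried a fusion of the transcriptional co-activator YAP1 with another gene, which gives the groups YAP1-FAM118B, YAP1-TFE3 and YAP1-MAMLD1-dR3R1. The labels do not say what the suffix dR3R1 stands for, and they give no strain, age or receptor driver, so what all groups share beyond species cannot be stated. Whether each library is a separate mouse is not in the labels, so each p-value reflects the spread among these libraries alone, which may in part be technical. The tissue field calls the naive samples tumour, but they held 103 to 127 CPM (scaled counts, explained with the levels) summed over 6 tumour and progenitor genes. The tumours held 2114 to 3804 CPM, most of it Vim (1501 to 3339 CPM against 30.8 to 39.7 CPM in naive cortex). Olig2 of that list was lower in each YAP1-TFE3 library (11.4 to 19.6 CPM) than in naive cortex (25.0 to 35.3 CPM). Summed over 6 markers of cortex neurons, naive cortex held 854 to 2027 CPM. YAP1-MAMLD1-dR3R1 held 9.14 to 221 CPM and YAP1-TFE3 38.2 to 335 CPM, while YAP1-FAM118B, at 736.5 to 1068 CPM, overlapped naive cortex.

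Class I molecules sit on the surface of almost all nucleated cells and show fragments of the cell's own proteins to CD8 T cells. The proteasome cuts proteins into peptides, the transporter made of Tap1 and Tap2 carries them into the endoplasmic reticulum, and tapasin holds an empty class I molecule beside the transporter until a peptide binds. The surface molecule is a heavy chain, such as those of H2-D1 and H2-K1, paired with the light chain B2m. Interferon induces these genes together, and Nlrc5 is the transactivator that works at class I promoters. Normal brain, neurons above all, is known for low class I levels, while activated microglia, the macrophages of the brain, and other leukocytes carry much of it.

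On mouse assembly GRCm38.p6, 7 of the 10 genes lie on chromosome 17, in the MHC region. Psmb9 (34182030 to 34187330, minus strand), Tap1 (34187556 to 34197225, plus), Psmb8 (34198195 to 34201454, plus) and Tap2 (34204479 to 34216321, plus) are neighbours. Tapbp (33919478 to 33929290, plus), H2-K1 (33996012 to 34000619, minus) and H2-D1 (35263094 to 35267497, plus) are on the same chromosome. B2m lies alone on chromosome 2 (122147687 to 122153082, plus). Psmb10 (105935728 to 105938392, minus) and Nlrc5 (94434335 to 94527272, plus) are on chromosome 8.

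The promoter of B2m is shown in full because it holds, within a short stretch, a match to each of the 4 sequence elements known from class I promoters that were searched on both strands. These are a core of the interferon-stimulated response element (GAAA, any 2 bases, GAAA), the kappa B consensus, the core of the X2 box (TGACG) and the CCAAT box, here on the other strand as ATTGG. The sequence is RefSeq's for GRCm38.p6, chr2:122147437-122147686, plus strand, the 250 bases before the start site, with the 4 matches in capitals in that order.
B2m: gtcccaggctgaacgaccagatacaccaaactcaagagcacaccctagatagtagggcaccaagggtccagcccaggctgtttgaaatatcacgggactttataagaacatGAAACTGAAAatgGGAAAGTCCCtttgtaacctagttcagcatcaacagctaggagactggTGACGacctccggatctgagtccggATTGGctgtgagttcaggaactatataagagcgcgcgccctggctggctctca

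The X2 core and the CCAAT box stood at the same spacing in B2m, H2-K1 and H2-D1, and the 30 bases from one to the other are shown with Tap1's for comparison. They lie at chr2:122147609-122147638 (plus strand) for B2m, chr17:34000359-34000388 (minus) for H2-K1, chr17:35262993-35263022 (plus) for H2-D1 and chr17:34187470-34187499 (plus) for Tap1, with the elements in capitals. 2 windows are listed for H2-K1, and the first was used. The start site of that window lies inside the gene span given above, not at its end (34000619). The X2 core begins at −41 from the start site in H2-K1, −101 in H2-D1 and −78 in B2m.
B2m: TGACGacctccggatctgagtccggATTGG
H2-K1: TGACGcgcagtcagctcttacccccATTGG
H2-D1: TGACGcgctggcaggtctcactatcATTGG
Tap1: TGACGacagagggtcctgccctcaatctgg
The H2-K1 and H2-D1 stretches had 23 of 30 bases in common, while B2m had 13 in common with H2-K1 and 12 with H2-D1, 10 of which are the elements themselves. Tap1 has the X2 core but no CCAAT box at that distance. The pattern of X2 core, 20 other bases and ATTGG, searched on both strands and written after the sequences were seen, was found in 31 of 32851 promoter windows of 300 bases, which is 0.0944%. The 27 gene symbols with it include another class I heavy chain, H2-M3. The kappa B match of the 2 heavy chains stood in stretches with 29 of 30 bases in common, at chr17:34000438-34000467 (minus) for H2-K1 and chr17:35262914-35262943 (plus) for H2-D1.
H2-K1: cccagggctGGGGATTCCCCatctccacag
H2-D1: cccagggctGGGGATTCCCCatctcctcag

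Promoter windows of 300 bases were held for 8 of the 10 genes, not for Tap2 and Nlrc5. The core of the interferon-stimulated response element was found in 1 of the 8, B2m, and in 3.44% of all windows. The gamma-activated site (TTCNNNGAA) was in 1 of the 8, Psmb8, and in 8.3% of all windows. TGACG was in 5 of the 8 against 20.8% of all windows, CCAAT in 6 against 37.4%, the kappa B consensus in 3 against 8.46%, and TATAAA in 4 against 13.6%. Genes with shared sequence are counted more than once here. The H2-K1 and H2-D1 windows were identical at 211 of 239 aligned bases (88.3%), and Psmb9 and Tap1, whose start sites are 226 bases apart on opposite strands, have 275 bases of their windows in common. TATAAA began at −26 from the start site in H2-D1, at −237 in Psmb8 and at 36, after the start site, in H2-K1. In B2m it was on the other strand at −152. A match in these letters is a description and not a measured site.

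Levels are given as CPM, the counts of a gene scaled to its library size after scaling with TMM factors, which adjust for composition. Libraries held 19850220 to 24760814 counted reads, so that 3 reads, the least taken as a detectable level, came to 0.117 to 0.145 CPM. Within groups, libraries correlated at 0.971 to 0.985 (naive), 0.905 to 0.955 (YAP1-MAMLD1-dR3R1), 0.933 to 0.974 (YAP1-FAM118B) and 0.911 to 0.94 (YAP1-TFE3) in log2 CPM over genes. Naive replicate 2 and YAP1-FAM118B replicate 2 each held RNA of both Xist (25.6 and 162 CPM), made in females, and the Y-linked gene Ddx3y (49.4 and 29.9 CPM). Naive replicate 3, YAP1-MAMLD1-dR3R1 replicate 1 and YAP1-FAM118B replicate 1 held Xist (305 to 493 CPM) with Ddx3y at no more than 0.044 CPM, and the other 7, all 3 of YAP1-TFE3 among them, held Ddx3y (62.9 to 87.8 CPM) with Xist at no more than 0.434 CPM. The naive, YAP1-MAMLD1-dR3R1 and YAP1-FAM118B replicates are therefore not all repeats of a single animal within a group, and sex was uneven between groups. Each count of the 10 genes is given with and without the pair of libraries that held both. A gene is called higher or lower where the quasi-likelihood test of edgeR, fitted to all 12 libraries, gave a Benjamini-Hochberg adjusted p under 0.05 over all genes tested.

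All 10 genes were higher in YAP1-MAMLD1-dR3R1 and in YAP1-TFE3 tumours than in naive cortex, and 9 of 10 were higher in YAP1-FAM118B tumours. Of all genes tested, 34.4% were called higher in YAP1-MAMLD1-dR3R1, 40.6% in YAP1-TFE3 and 21.3% in YAP1-FAM118B, and 28.8%, 30.0% and 8.45% lower in that order. The median log2 fold change of the 10 was 6.63, 5.42 and 3.87 in that order, while the median over all genes tested was 0.06, 0.23 and −0.05. Every YAP1-MAMLD1-dR3R1 library and every YAP1-TFE3 library lay above every naive library for 10 of 10 genes (38.0% and 42.5% of all genes), and every YAP1-FAM118B library for 9 of 10 (29.7%). The gene left over was Psmb10. Called higher in all 3 fusions were 9 of the 10, beside 18.6% of all genes tested. The fusions were compared with the same 3 naive libraries, so these counts share them. Without naive replicate 2 and YAP1-FAM118B replicate 2 the counts were 10, 10 and 8, with Psmb9 not passing in YAP1-FAM118B (adjusted p = 0.0516). Because these are pieces of tissue, more cells that express a gene and more RNA of it per cell cannot be told apart.

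**Figure D1:**
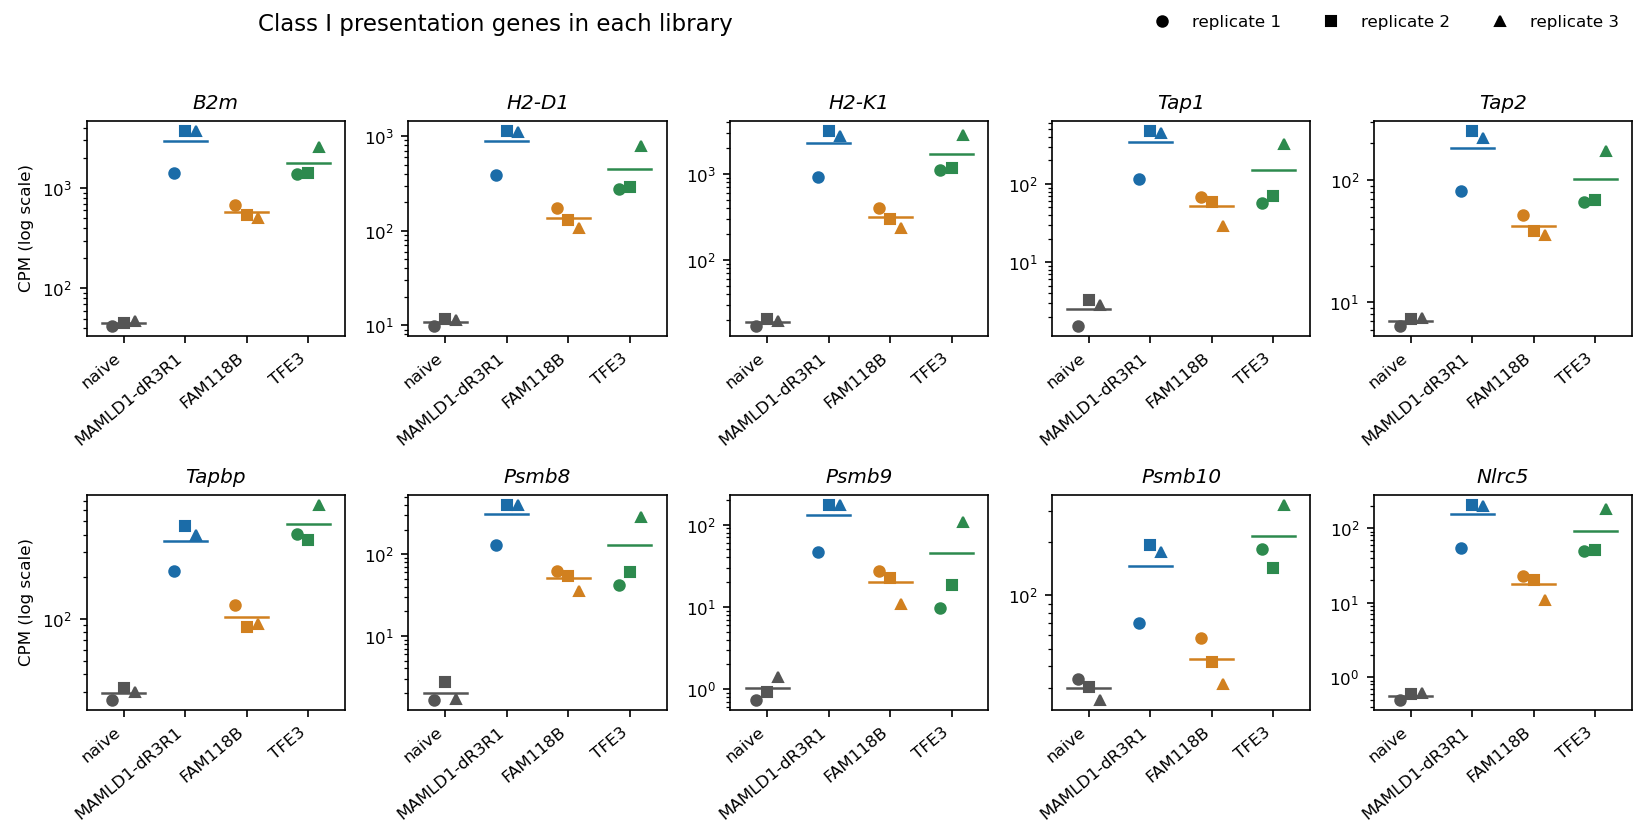
Level of each of the 10 genes (CPM, log axis, 1 panel per gene) in the 3 libraries of each group, with points for libraries and a line at the group mean. Naive libraries sit lowest in each panel except Psmb10, where YAP1-FAM118B and naive overlap, and YAP1-TFE3 replicate 3 stands above the other YAP1-TFE3 libraries in all panels.

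The light chain gene B2m had the highest mean level of the 10 per kilobase of transcript in each group, at 52.0 CPM in naive cortex and 3425, 2087 and 666 CPM in YAP1-MAMLD1-dR3R1, YAP1-TFE3 and YAP1-FAM118B. Unscaled for length, its level was 42.2, 45.0 and 47.0 CPM in naive cortex, 1408, 3711 and 3717 CPM in YAP1-MAMLD1-dR3R1, 674, 538 and 506 CPM in YAP1-FAM118B, and 1388, 1427 and 2569 CPM in YAP1-TFE3 tumours, in order of replicate. The lowest tumour library was 10.8 times the highest naive library, and YAP1-MAMLD1-dR3R1 replicate 1 lay inside the YAP1-TFE3 range. B2m rose over naive by a log2 fold change of 6.04 ± 0.45 (SE, n = 3 per group) in YAP1-MAMLD1-dR3R1, 5.33 ± 0.44 in YAP1-TFE3 and 3.68 ± 0.40 in YAP1-FAM118B, with edgeR adjusted p = 7.92e-06, 5.93e-06 and 0.00014.

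H2-K1, a classical heavy chain, was at 16.8, 20.4 and 19.1 CPM in naive cortex, 918, 3181 and 2788 CPM in YAP1-MAMLD1-dR3R1, 405, 298 and 237 CPM in YAP1-FAM118B, and 1113, 1168 and 2861 CPM in YAP1-TFE3. H2-D1, the other classical heavy chain, was at 9.81, 11.5 and 11.4 CPM, then 390, 1135 and 1112 CPM, 172, 128 and 108 CPM, and 278, 291 and 780 CPM in the same order. Both had YAP1-FAM118B between naive and the other fusions with no overlap, and YAP1-MAMLD1-dR3R1 and YAP1-TFE3 overlapped. The log2 fold change over naive of H2-K1 was 6.93 ± 0.62 in YAP1-MAMLD1-dR3R1, 6.51 ± 0.61 in YAP1-TFE3 and 4.06 ± 0.54 in YAP1-FAM118B (edgeR adjusted p = 1.8e-05, 1.21e-05 and 0.000425). For H2-D1 the same comparisons gave 6.33 ± 0.59, 5.37 ± 0.56 and 3.64 ± 0.52 (edgeR adjusted p = 2.06e-05, 2.28e-05 and 0.00061). The heavy chains resemble each other and their relatives in sequence: 14.3% of the 50-base windows of the H2-D1 transcript and 8.79% of those of H2-K1 also occur in another gene, so how the authors' counting treated such reads could shift both. H2-Q6 and H2-Q7, which are among those relatives, are listed at 0 in all 12 libraries.

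The ratio of H2-K1 to H2-D1 per base of transcript differed between groups in these libraries. It was 2.19 to 2.30 in naive cortex, 2.86 to 3.06 in YAP1-FAM118B, 3.05 to 3.64 in YAP1-MAMLD1-dR3R1 and 4.76 to 5.2 in YAP1-TFE3. YAP1-TFE3 lay above all other libraries, and each tumour library lay above each naive library. Set against the light chain, the sum of the 2 heavy chains per base was 0.307 to 0.346 of B2m in naive cortex, 0.337 to 0.424 in YAP1-FAM118B, 0.460 to 0.580 in YAP1-MAMLD1-dR3R1 and 0.508 to 0.716 in YAP1-TFE3. These and the other ratios were chosen after the values were seen and have no test.

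Tap1, which with Tap2 forms the peptide transporter, was at 1.52, 3.27 and 2.82 CPM in naive cortex, 117, 479 and 448 CPM in YAP1-MAMLD1-dR3R1, 67.3, 59.6 and 28.6 CPM in YAP1-FAM118B, and 56.8, 70.9 and 326 CPM in YAP1-TFE3. Tap2 was at 6.40, 7.25 and 7.48 CPM, 81.5, 254 and 221 CPM, 52.1, 38.2 and 35.7 CPM, and 66.3, 68.4 and 174 CPM. YAP1-TFE3 replicates 1 and 2 lay within or beside the YAP1-FAM118B range for Tap1 and above it for Tap2, while replicate 3 was 5.10 times their mean for Tap1 and 2.58 times for Tap2. Tap1 rose over naive by a log2 fold change of 7.10 ± 0.93, 5.90 ± 0.89 and 4.35 ± 0.83 in YAP1-MAMLD1-dR3R1, YAP1-TFE3 and YAP1-FAM118B (edgeR adjusted p = 0.000136, 0.000224 and 0.00337). Tap2 rose by 4.72 ± 0.52, 3.87 ± 0.50 and 2.57 ± 0.48 (edgeR adjusted p = 5.31e-05, 8.91e-05 and 0.00293). Per base of transcript, Tap1 was 0.277 to 0.526 of Tap2 in naive cortex, and 0.936 to 2.37 over the 9 tumour libraries. Naive cortex thus held less Tap1 than Tap2 per base in 3 of 3 libraries.

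Tapbp encodes tapasin, which links the transporter to the heavy chain. Its level was 26.2, 31.9 and 29.7 CPM in naive cortex, 220.0, 462 and 400.2 CPM in YAP1-MAMLD1-dR3R1, 127, 88.0 and 92.6 CPM in YAP1-FAM118B, and 406, 368 and 658 CPM in YAP1-TFE3. Among the members it had a narrow range over tumour libraries of a group, with YAP1-TFE3 replicate 3 at 1.70 times the mean of the other pair. Its log2 fold change over naive was 3.62 ± 0.33 in YAP1-MAMLD1-dR3R1 tumours, 1.81 ± 0.31 in YAP1-FAM118B and 4.03 ± 0.34 in YAP1-TFE3 (edgeR adjusted p = 1.95e-05, 0.00179 and 6.46e-06). Pooled over all its GENCODE M21 transcripts, exons of Tapbp have 29.0% of their bases in common with other genes, Zbtb22 on the same strand among them. Reads there cannot be told apart.

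Psmb8, Psmb9 and Psmb10 encode the catalytic subunits that turn the standard proteasome into the immunoproteasome, taking the places of Psmb5, Psmb6 and Psmb7 in that order. Psmb8 was at 1.64, 2.72 and 1.67 CPM in naive cortex, 131, 397 and 404 CPM in YAP1-MAMLD1-dR3R1, 62.5, 54.5 and 35.6 CPM in YAP1-FAM118B, and 42.3, 60.8 and 289.8 CPM in YAP1-TFE3. Psmb9 was at 0.739, 0.922 and 1.41 CPM, 45.8, 170.4 and 174 CPM, 27.1, 22.4 and 10.7 CPM, and 9.65, 18.6 and 108 CPM. For both, YAP1-TFE3 replicates 1 and 2 lay within or below the YAP1-FAM118B range and replicate 3 was far above it, at 5.62 times the mean of the other pair for Psmb8 and 7.62 times for Psmb9. Psmb8 rose over naive by a log2 fold change of 7.27 ± 0.89 in YAP1-MAMLD1-dR3R1 tumours, 4.66 ± 0.80 in YAP1-FAM118B and 6.02 ± 0.84 in YAP1-TFE3 (edgeR adjusted p = 9.2e-05, 0.00186 and 0.000144). Psmb9 rose by 6.99 ± 1.07, 4.29 ± 0.96 and 5.47 ± 1.01 (edgeR adjusted p = 0.000339, 0.0083 and 0.000802), from naive counts of 18, 22 and 32 reads. Psmb9 and Tap1 overlap by 212 exonic bases on opposite strands and Psmb8 has 14.7% of its exonic bases in common with other genes; since the strand setting of the counting is not given in the sources used here, those reads cannot be assigned.

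Psmb10, the third of these subunits, had the smallest log2 fold change over naive of the 10 genes in each fusion. Its level was 34.0, 30.5 and 25.8 CPM in naive cortex, 69.8, 193 and 176 CPM in YAP1-MAMLD1-dR3R1, 57.7, 42.2 and 31.7 CPM in YAP1-FAM118B, and 182, 142 and 324 CPM in YAP1-TFE3. YAP1-FAM118B replicate 3 lay inside the naive range, and the groups overlapped. The log2 fold change of Psmb10 over naive was 2.28 ± 0.42 in YAP1-MAMLD1-dR3R1 and 2.84 ± 0.43 in YAP1-TFE3 (edgeR adjusted p = 0.00109 and 0.00024). In YAP1-FAM118B it was 0.54 ± 0.41 (edgeR adjusted p = 0.33), with a 95% interval from −0.36 to 1.45. Per kilobase of transcript, Psmb10 was second to B2m in naive cortex at 23 CPM and the seventh of the 10 in YAP1-MAMLD1-dR3R1 at 112 CPM.

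The standard subunits Psmb5, Psmb6 and Psmb7 differed far less between groups, with means of 28.3, 74.7 and 131 CPM in naive cortex and 27.7, 100.2 and 114 CPM in YAP1-MAMLD1-dR3R1. Their means were 30.6, 81.7 and 125 CPM in YAP1-FAM118B. In YAP1-TFE3 they were 38.2, 131 and 190 CPM, and all 3 were called higher there than in naive cortex. Per base of transcript, Psmb8 was 0.0325 to 0.0509 of Psmb5 in naive cortex, 0.654 to 1.07 in YAP1-FAM118B, 0.598 to 4.10 in YAP1-TFE3 and 2.52 to 8.44 in YAP1-MAMLD1-dR3R1. The ratio of Psmb9 to Psmb6 was lower throughout, at 0.00628 to 0.0118, 0.0818 to 0.195, 0.0412 to 0.463 and 0.292 to 1.00 in the same order. Psmb10 against Psmb7 started higher and ranged less: 0.181 to 0.234 in naive cortex, 0.229 to 0.414 in YAP1-FAM118B, 0.714 to 1.39 in YAP1-TFE3 and 0.520 to 1.72 in YAP1-MAMLD1-dR3R1. In naive cortex Psmb10 was 13.9 to 25.7 times Psmb8 per base, and in YAP1-MAMLD1-dR3R1 it was 0.542 to 0.661 of it.

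**Figure D2:**
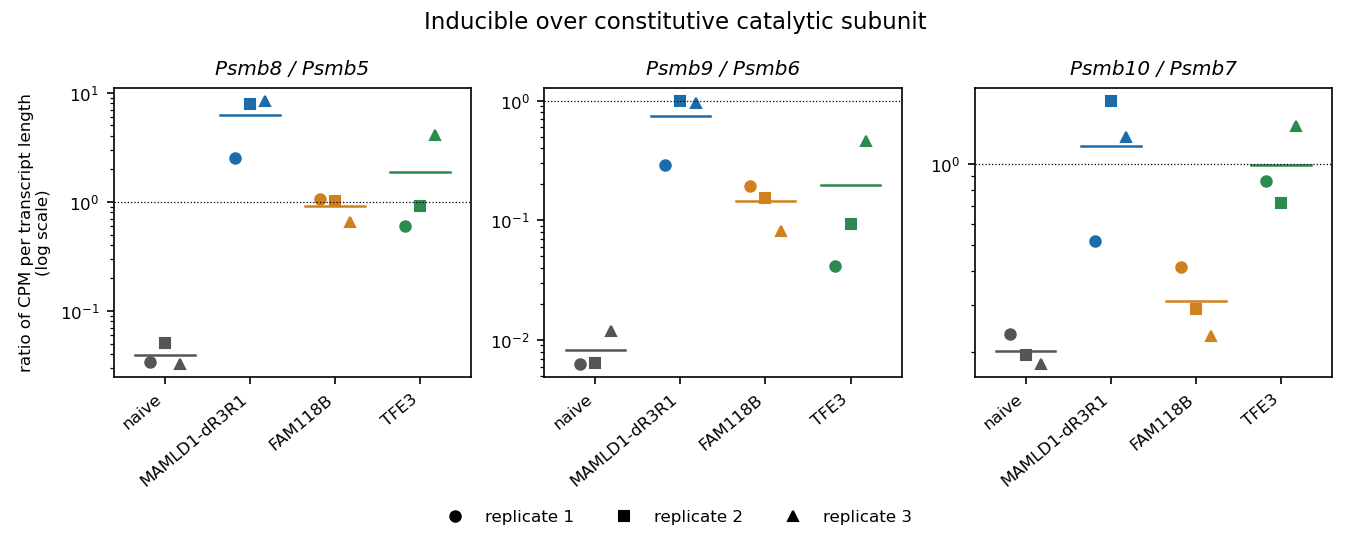
Ratio of each immunoproteasome subunit to the standard subunit it replaces, per base of transcript, on a log axis for each library, with a dotted line at 1. Psmb8 over Psmb5 lay between 0.0325 and 0.0509 in naive cortex and between 2.52 and 8.44 in YAP1-MAMLD1-dR3R1, while Psmb10 over Psmb7 ranged from 0.181 to 1.72 over all 12 libraries.

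Nlrc5, the class I transactivator, had the lowest level of the 10 per kilobase in naive cortex (0.0746 CPM) and the largest log2 fold change over naive in each fusion. Its level was 0.493, 0.586 and 0.616 CPM in naive cortex (12, 14 and 14 reads), 54.2, 206 and 200.5 CPM in YAP1-MAMLD1-dR3R1, 22.8, 20.1 and 10.8 CPM in YAP1-FAM118B, and 49.8, 50.2 and 178 CPM in YAP1-TFE3. Each group stood apart from naive and YAP1-FAM118B stood apart below the other fusions, which overlapped. The log2 fold change over naive was 8.07 ± 0.82 in YAP1-MAMLD1-dR3R1 tumours, 4.97 ± 0.74 in YAP1-FAM118B and 7.35 ± 0.80 in YAP1-TFE3 (edgeR adjusted p = 3.34e-05, 0.000806 and 2.97e-05).

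**Figure D3:**
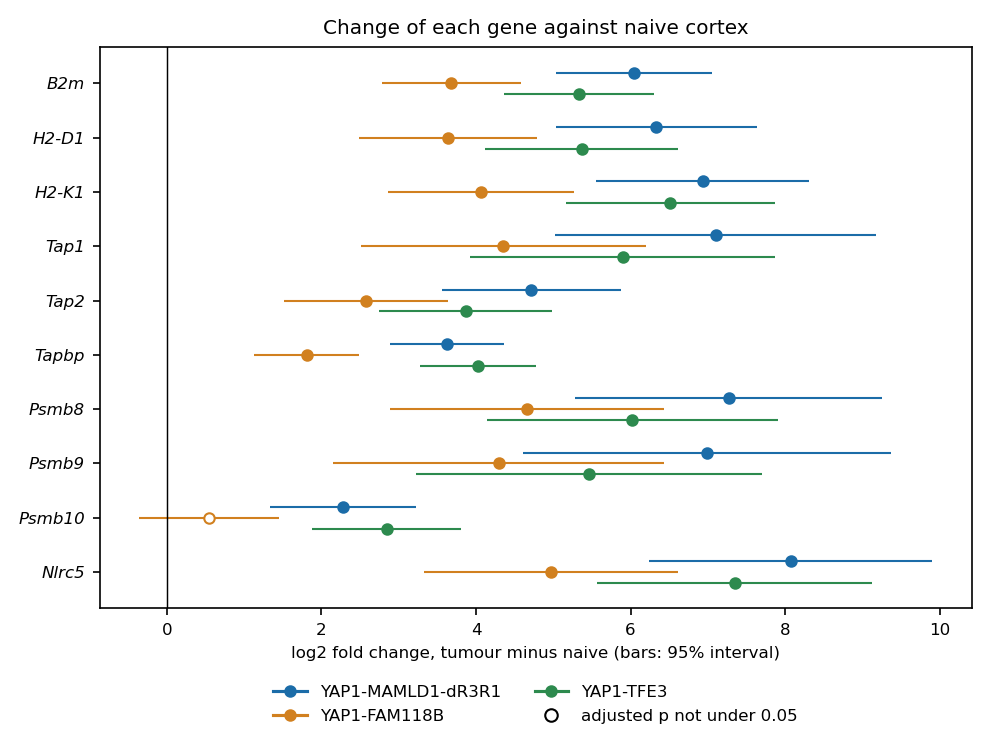
Log2 fold change of each gene over naive cortex in the 3 fusions with its 95% interval from edgeR (n = 3 libraries per group), where an open circle is an adjusted p not under 0.05. Psmb10 in YAP1-FAM118B, at 0.54, is the only open circle, and Nlrc5 has the largest value in each fusion.

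Between the tumours, YAP1-FAM118B had the lowest mean of each of the 10 genes, although YAP1-TFE3 replicates 1 and 2 were not above its range throughout for Tap1, Psmb8 and Psmb9. All 10 genes were lower in YAP1-FAM118B than in YAP1-MAMLD1-dR3R1, beside 13.5% of all genes tested, with a median log2 fold change of −2.65 against −0.05 over all genes, and the libraries of the groups did not overlap for 10 of 10 (25.0% of all genes). The log2 fold changes ran from −3.10 for Nlrc5 (edgeR adjusted p = 0.0107) to −1.74 for Psmb10 (0.0176). B2m was at −2.36 (0.00608), H2-K1 at −2.87 (0.00769), H2-D1 at −2.69 (0.0081) and Tapbp at −1.82 (0.00678). The calls were closest to the threshold for Psmb9 (−2.69, edgeR adjusted p = 0.0434), Tap1 (−2.75, 0.0276) and Psmb8 (−2.61, 0.0265), with Tap2 at −2.14 (0.013). Leaving out YAP1-MAMLD1-dR3R1 replicate 2 or 3, or YAP1-FAM118B replicate 2 or 3, left 6 of the 10 called, with Tap1, Psmb8, Psmb9 and Psmb10 lost. Without naive replicate 2 and YAP1-FAM118B replicate 2 together, 3 were called: B2m, H2-K1 and Tapbp.

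Against YAP1-FAM118B, 7 of the 10 were higher in YAP1-TFE3, beside 28.0% of all genes tested, with a median log2 fold change of 1.69 against 0.08 over all genes. The libraries did not overlap for 7 (31.4% of all genes). H2-K1 was higher by a log2 fold change of 2.45 (edgeR adjusted p = 0.00286), Nlrc5 by 2.37 (0.00915), Psmb10 by 2.30 (0.00159), Tapbp by 2.22 (0.000357), H2-D1 by 1.73 (0.0127), B2m by 1.65 (0.00467) and Tap2 by 1.29 (0.0358). The call of Tap2 was lost under 17 of 23 other settings. Tap1, Psmb8 and Psmb9 did not pass. Their log2 fold changes were 1.54 (95% interval −0.07 to 3.16, edgeR adjusted p = 0.0995), 1.36 (−0.15 to 2.88, 0.119) and 1.17 (−0.65 to 2.99, 0.255). Without YAP1-TFE3 replicate 3 the count was 4 (B2m, H2-K1, Psmb10 and Tapbp), and Psmb8 and Psmb9 turned to −0.18 and −0.70 (edgeR adjusted p = 0.772 and 0.365). Without naive replicate 2 and YAP1-FAM118B replicate 2 the count was 5, with H2-D1 and Tap2 lost.

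None of the 10 was called between YAP1-TFE3 and YAP1-MAMLD1-dR3R1, where 22.6% of all genes were called higher and 16.9% lower. By edgeR, 0 had an unadjusted p under 0.05 and the smallest adjusted p was 0.125; DESeq2 also called 0. The libraries overlapped for all 10, while 27.0% of all genes had every YAP1-TFE3 library above and 21.1% below. The intervals were wide: B2m was at a log2 fold change of −0.71 (95% interval −1.53 to 0.10), H2-K1 at −0.42 (−1.49 to 0.64), Psmb9 at −1.52 (−3.35 to 0.31), Tapbp at 0.40 (−0.26 to 1.07) and Psmb10 at 0.56 (−0.34 to 1.46). This does not show that the fusions had the same levels. Without YAP1-MAMLD1-dR3R1 replicate 1, B2m, H2-D1 and Tap2 were called lower in YAP1-TFE3, and without YAP1-TFE3 replicate 3, B2m, H2-D1, Nlrc5, Psmb8, Psmb9, Tap1 and Tap2 were, while Tapbp turned from 0.40 to −0.021. The count was 0 without naive replicate 2 and YAP1-FAM118B replicate 2.

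**Figure D4:**
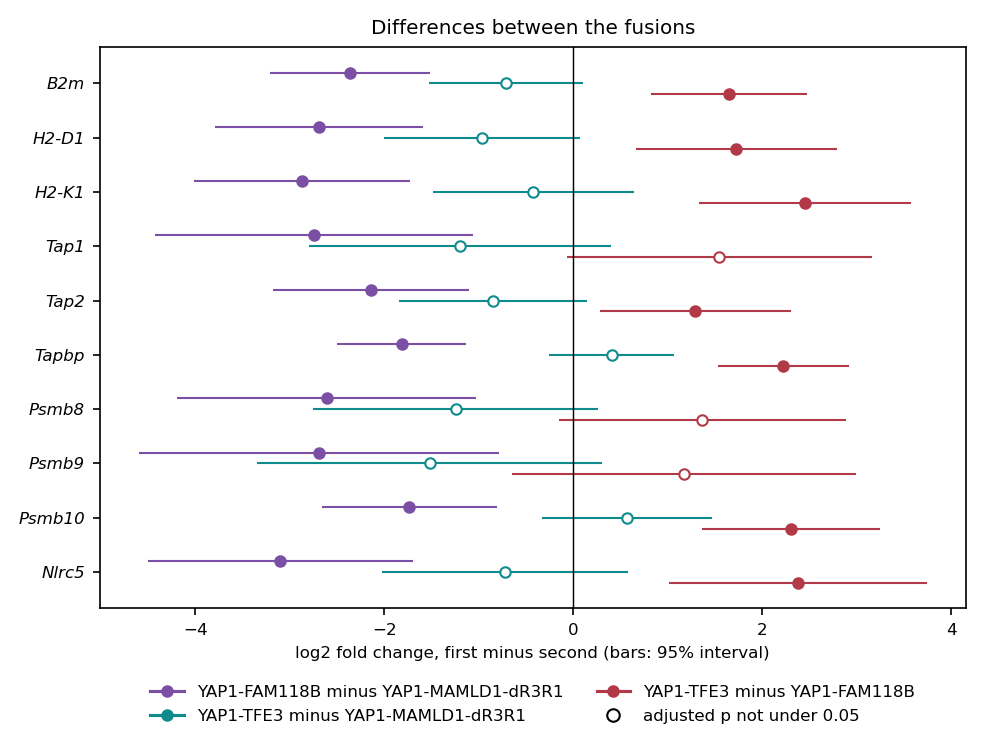
Log2 fold change of each gene between the fusions with its 95% interval from edgeR (n = 3 libraries per group), with open circles for an adjusted p not under 0.05. All 10 values lie below 0 for YAP1-FAM118B against YAP1-MAMLD1-dR3R1, 7 of 10 are filled above 0 for YAP1-TFE3 against YAP1-FAM118B, and all 10 are open for YAP1-TFE3 against YAP1-MAMLD1-dR3R1.

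In each fusion the same library was at an end of its group for all 10 genes. In YAP1-TFE3, replicate 3 was above the mean of replicates 1 and 2 for all 10, from 1.70 times for Tapbp to 7.62 times for Psmb9. YAP1-MAMLD1-dR3R1 replicate 1 was the lowest of its group for all 10, and the mean of the other pair was from 1.96 times its level for Tapbp to 3.95 times for Tap1. It was also the only library of its group with Xist at a level of a female (493 CPM). In YAP1-FAM118B, replicate 1, the library of its group with Xist and no Ddx3y, was the highest for all 10 and above replicate 3 from 1.33 times for B2m to 2.53 times for Psmb9. The part of sex in these differences was not tested. The mean log2 CPM of the 10 was 7.11, 7.26 and 8.83 in the YAP1-TFE3 libraries, 7.44, 9.07 and 8.99 in YAP1-MAMLD1-dR3R1, 6.54, 6.19 and 5.72 in YAP1-FAM118B, and 2.57, 2.89 and 2.83 in naive cortex. Over the 9 tumour libraries, each gene's log2 CPM correlated with the mean of the other 9 at a Pearson r from 0.834 for Psmb10, 0.842 for Tapbp and 0.859 for Psmb9 to 0.994 for Nlrc5. The libraries fall into the groups described, and r is a description.

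Genes of all leukocytes, of microglia and of macrophages rose over naive cortex with the class I genes. The summed level of 4 genes of all leukocytes (Ptprc, Coro1a, Laptm5 and Cd53) was 133, 143 and 94.7 CPM in naive cortex, 1099, 1595 and 1701 CPM in YAP1-MAMLD1-dR3R1, 572, 416 and 571 CPM in YAP1-FAM118B, and 332, 277 and 869.8 CPM in YAP1-TFE3. Of these 4, the numbers called higher than naive were 4, 3 and 3 in that order of fusions. Over all genes tested, 34.4%, 21.3% and 40.6% were called higher, the shares to set beside the counts called higher that follow. Of 8 microglia markers 8, 6 and 7 were called higher, and their sum was 269 to 330 CPM in naive cortex, 4268 to 7885, 1389 to 1609, and 1131 to 3416 CPM. For 8 markers of monocytes and macrophages, with Ly6c2 at 0 in naive cortex, 8, 8 and 7 were higher and the sum went from 36.4 to 48.8 CPM in naive cortex to 1453 to 1907, 534 to 783, and 621 to 1564 CPM. T cell markers, 7 of 8 in the files, had sums of 2.33 to 6.79 CPM in naive cortex (Cd3d at 0), 18.7 to 146 CPM, 15.6 to 23.9 CPM, and 5.16 to 50.8 CPM, with 6, 0 and 5 called higher. YAP1-TFE3 replicates 1 and 2, at 5.16 and 5.81 CPM, lay inside the naive range, and only replicate 3 lay above it. In YAP1-FAM118B most of the sum was Cd4 (12.5 to 17.05 CPM), with Cd3e at no more than 0.37 CPM. Markers of neurons, which are known to make little class I, summed to 6129 to 9140 CPM in naive cortex, 519 to 1184, 3472 to 5307, and 97.1 to 902 CPM. In that order of fusions 6, 1 and 7 of 8 were called lower, beside 28.8%, 8.45% and 30.0% of all genes tested, so the YAP1-FAM118B count is near that share. Markers of other cells rose too. Those of endothelium summed to 95.9 to 105 CPM in naive cortex, 239 to 438, 109 to 195, and 147 to 270 CPM. Those of pericytes and fibroblasts summed to 75.4 to 124 CPM in naive cortex, 1057 to 2062, 878 to 5770, and 399 to 808 CPM, with Col1a1 at up to 4971 CPM. Which of these or other cells, tumour cells among them, the class I RNA came from was not tested.

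The class I genes did not follow these 4 leukocyte genes in every library. YAP1-TFE3 replicates 1 and 2 had lower sums of the 4 than each YAP1-FAM118B library, yet B2m, H2-K1, H2-D1, Tap2, Tapbp, Psmb10 and Nlrc5 were higher in them than in each YAP1-FAM118B library. Their monocyte and macrophage sums, 757.7 and 621 CPM, lay inside the YAP1-FAM118B range. Most of each sum was Cd68, a macrophage gene (457 and 389 CPM against 47.7 to 193 CPM in YAP1-FAM118B). Ccr2, Adgre1, Mrc1, Itgam and Fcgr1 of the same list were lower in both libraries than in each YAP1-FAM118B library. Adgre1, for example, was at 45.2 and 30.2 CPM against 56.5 to 129 CPM, while Cd14 and Ly6c2 overlapped. Coro1a made up 68.2 to 76.2% of the sum of 4 in naive cortex and 16.3 to 31.5% in the tumours, so ratios to that sum are given with and without it. The ratio of B2m to the sum of 4 was 0.315 to 0.497 in naive cortex, 0.886 to 1.3 in YAP1-FAM118B, 1.28 to 2.33 in YAP1-MAMLD1-dR3R1 and 2.95 to 5.16 in YAP1-TFE3. Without Coro1a it was 1.31 to 1.56, 1.07 to 1.89, 1.53 to 2.96 and 3.89 to 6.89, so that naive cortex overlapped YAP1-FAM118B and YAP1-MAMLD1-dR3R1. For H2-K1 the ratio without Coro1a was 0.522 to 0.636, 0.503 to 1.05, 0.998 to 2.54 and 4.03 to 5.64 in the same order. YAP1-TFE3 lay above the other tumours with both sums for both genes. For Tapbp the ratio was 0.757 to 1.33 in YAP1-TFE3 against 0.197 to 0.313 in naive cortex with Coro1a, and 0.995 to 1.78 against 0.813 to 0.985 without it, where the other fusions lay between 0.196 and 0.369. Psmb10 changed order: naive cortex lay below YAP1-TFE3 with Coro1a (0.213 to 0.272 against 0.372 to 0.549) and above it without (0.857 to 1.06 against 0.490 to 0.687). These ratios were chosen after the values were seen and have no test.

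**Figure D5:**
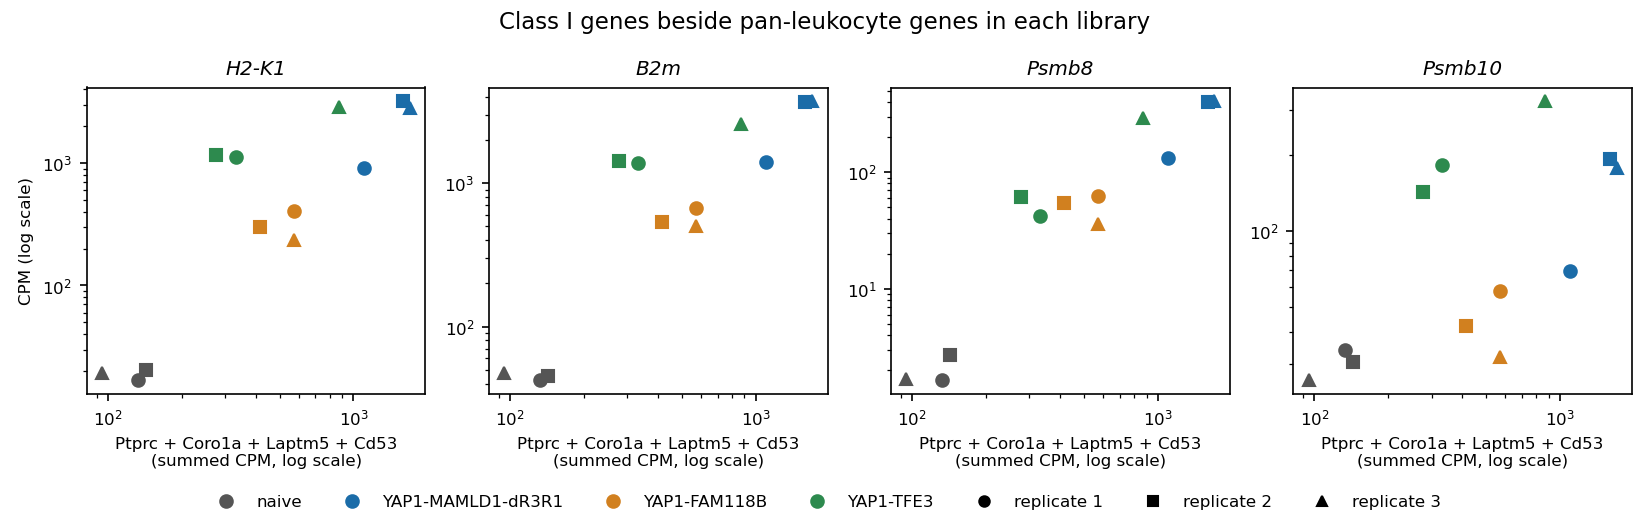
Level of H2-K1, B2m, Psmb8 and Psmb10 (CPM) against the summed CPM of Ptprc, Coro1a, Laptm5 and Cd53, both on log axes, with 1 point per library coloured by group. YAP1-TFE3 replicates 1 and 2 lie to the left of YAP1-FAM118B (332 and 277 against 416 to 572 CPM) but higher for H2-K1 (1113 and 1168 against 237 to 405 CPM).

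The other class I heavy chains, the non-classical H2-Q, H2-T and H2-M families, mostly moved with the classical pair. Of 16 listed 13 were tested, and 8 were higher and 1 lower in YAP1-MAMLD1-dR3R1, 7 and 3 in YAP1-FAM118B, and 9 and 1 in YAP1-TFE3. Over all genes tested, 34.4%, 21.3% and 40.6% were higher and 28.8%, 8.45% and 30.0% lower in that order. Counts and log2 fold changes over naive of the gene lists keep this order of the fusions. The median log2 fold changes were 4.71, 2.34 and 3.05, and they stayed at these values with H2-Q5 and H2-M2, which had no read in naive cortex, set to the bound that 3 reads over the naive group give. H2-Q4 went from 2.47 CPM in naive cortex to 559.5, 41.0 and 270.0 CPM in that order (log2 fold changes 7.82, 4.05 and 6.77, edgeR adjusted p = 3.8e-05, 0.00186 and 4.26e-05). H2-M3, which presents formylated peptides, rose by 4.74, 2.34 and 3.92, and H2-T10 by 6.62, 3.34 and 5.81 (edgeR adjusted p at most 0.0125). H2-Q2 went the other way, from 3.41 CPM to 0.767, 0.132 and 0.686 CPM, and fell by 2.15, 4.65 and 2.31 on the log2 scale (edgeR adjusted p = 0.019, 0.00184 and 0.0122). H2-Bl was lower in YAP1-FAM118B (−1.40, 0.00554) and higher in YAP1-TFE3 (0.77, 0.032). In YAP1-FAM118B the count called in either direction, 10, was 6 without naive replicate 1, 2 or 3 or YAP1-FAM118B replicate 1, and 5 without the pair of libraries with Xist and Ddx3y. Of the class I-like molecules 6 of 9 were tested, and 6, 5 and 5 were higher, among them Ulbp1, a ligand of the receptor NKG2D (0.0283 CPM, from 2 reads in all, in naive cortex and 7.66, 1.80 and 13.7 CPM in the tumours), Procr (3.20, 2.26 and 3.96) and Hfe (4.19, 2.32 and 3.18).

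Genes that trim peptides and load them in the endoplasmic reticulum were also called in most cases, with smaller fold changes. Of 10, the numbers higher than naive were 9 in YAP1-MAMLD1-dR3R1 tumours, 7 in YAP1-FAM118B and 9 in YAP1-TFE3, with median log2 fold changes of 1.60, 0.97 and 1.71. The shares of all genes tested that were higher were 34.4%, 21.3% and 40.6%. The chaperone Calr rose by 1.55, 1.18 and 2.03, Pdia3, a part of the loading complex, by 1.73, 1.24 and 1.83, and Sec61a1, of the translocon, by 1.64, 1.44 and 3.09 (edgeR adjusted p at most 0.000512). The aminopeptidase Lnpep was called in none (0.03, −0.18 and 0.19). These genes also serve proteins other than class I.

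The rest of the proteasome had smaller fold changes still. Its 11 structural 20S subunits were higher in 11, 2 and 10 cases, with medians of 0.46, 0.25 and 0.74. Over all genes tested 34.4%, 21.3% and 40.6% were higher in that order, so the 2 of 11 in YAP1-FAM118B is near the share of all genes. Psma7 rose by 0.70, 0.48 and 0.46 and Psmb2 by 0.89, 0.48 and 0.85. In YAP1-FAM118B the count of structural subunits was 4 without YAP1-TFE3 replicate 3. Of the 3 standard catalytic subunits 1, 0 and 3 were higher than naive, and the 1 of 3 in YAP1-MAMLD1-dR3R1 is near the share of all genes. In YAP1-FAM118B edgeR gave 0 with an unadjusted p under 0.05 and DESeq2 called 0. All 3 were higher in YAP1-TFE3 than in YAP1-FAM118B, beside 28.0% of all genes, by 0.32 for Psmb5, 0.69 for Psmb6 and 0.60 for Psmb7 (edgeR adjusted p = 0.0189, 0.000999 and 0.00187). The value of Psmb5 is not far from the effect of scaling. Library size only moved the median log2 fold change over all genes in this comparison by −0.214. Leaving out each library gave 2 to 3 calls, and leaving out both libraries with Xist and Ddx3y gave 2. Among 6 activators and assembly factors 3, 2 and 5 were higher. Psme2, a subunit of the activator that interferon induces, rose by 3.21, 1.5 and 1.96 (edgeR adjusted p = 0.000199, 0.0244 and 0.00226), Psme4 rose by 0.79, 0.64 and 0.90, and Psme3 was called in none. These activator counts were unsteady: for YAP1-FAM118B the count was 1 without naive replicate 1 and 0 without naive replicate 2 or 3 or YAP1-FAM118B replicate 1 or 3. For YAP1-MAMLD1-dR3R1 it was 5 without its replicate 1 or without YAP1-TFE3 replicate 1 or 3, and for YAP1-TFE3 it was 3 without its replicate 1 or 2.

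Among 10 factors known to act at class I promoters, 6 were higher and 2 lower in YAP1-MAMLD1-dR3R1, 4 and 2 in YAP1-FAM118B, and 5 and 4 in YAP1-TFE3. Over all genes tested 34.4% were higher and 28.8% lower, 21.3% and 8.45%, and 40.6% and 30.0% in that order, so the YAP1-TFE3 count is near that of all genes. The NF-kappa B subunits Nfkb1 (3.22, 2.01 and 2.29) and Rela (2.21, 1.35 and 1.88) and the factor Atf1 (2.41, 1.62 and 2.45) rose in all 3 fusions. Rfxap, of the complex that binds the X box, fell by 0.91, 0.46 and 1.09 on the log2 scale, and Nfyb, of the complex that binds the CCAAT box, was at −0.80, −0.31 and −1.15, not passing in YAP1-FAM118B. The YAP1-FAM118B count in either direction, 6, was 3 without YAP1-FAM118B replicate 3.

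Of 14 genes of interferon signalling 13, 9 and 12 were higher than naive, with medians of 2.76, 1.43 and 2.07. Beside these and the next counts, 34.4%, 21.3% and 40.6% of all genes tested were higher in that order. Receptor chains Ifngr1 (3.59, 2.22 and 2.46) and Ifnar2 (2.69, 1.70 and 1.90) rose in all 3 fusions, as did Irf8, a factor of myeloid cells (6.19, 3.78 and 4.82), while the kinase Jak1 was called in none (0.06, 0.13 and −0.19). All 15 interferon-induced genes were higher in YAP1-MAMLD1-dR3R1 and YAP1-TFE3 and 13 in YAP1-FAM118B, with medians of 5.66, 5.03 and 3.27. Bst2, which tethers viruses to the cell surface, rose from 4.30 CPM to 281.9, 65.2 and 885 CPM (log2 fold changes 6.04, 3.92 and 7.69, edgeR adjusted p = 6.37e-06, 8.32e-05 and 1.05e-06). Isg15 rose by 5.43, 3.66 and 4.74, and Usp18 by 5.66, 3.40 and 6.21. In YAP1-FAM118B the count of interferon-induced genes was 6 without naive replicate 1 or 3, 7 without naive replicate 2 or YAP1-FAM118B replicate 1, and 3 without the pair of libraries with Xist and Ddx3y. Of 9 interferons, Ifng was the only one with enough reads to be tested. Its level was 0.0411, 0 and 0.044 CPM in naive cortex, 0.272, 5.27 and 2.48 CPM in YAP1-MAMLD1-dR3R1, 0.37, 0.126 and 0 CPM in YAP1-FAM118B, and 0, 0 and 1.3 CPM in YAP1-TFE3. In YAP1-MAMLD1-dR3R1 Ifng was higher than naive (edgeR adjusted p = 0.0212; 2 reads in all naive libraries), a call lost without naive replicate 1, 2 or 3 or YAP1-MAMLD1-dR3R1 replicate 2. YAP1-TFE3 replicate 3, the library of its group with the most class I RNA, was also the only one of the 3 with Ifng reads.

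Receptors of class I molecules and relatives of those receptors, on T cells, NK cells and myeloid cells, were scarce in naive cortex. Of 14 listed 13 were in the files and 9 tested, and 8, 4 and 5 were higher. Beside these and the class II counts below, 34.4%, 21.3% and 40.6% of all genes tested were higher. Pirb, an inhibitory receptor of class I (7.44, 7.17 and 4.83), and Lilrb4a, a relative whose known ligand is an integrin (8.93, 7.34 and 7.81), rose in all 3 fusions, as did Klra2, from 0.0279 CPM (2 reads in all) to 22.1, 7.72 and 3.13 CPM. Mean naive levels were 0.197 CPM for Pirb (SD 0.268) and 0.0986 CPM for Lilrb4a. All 3 genes were thus near or below the 0.117 to 0.145 CPM of 3 reads, and the size of their rises is poorly fixed. In YAP1-TFE3 the count of receptors was 3 without its replicate 3. Cd8a, the co-receptor of T cells that recognise class I, was at 0.246, 0 and 0 CPM in naive cortex, 2.18, 32.3 and 31.8 CPM in YAP1-MAMLD1-dR3R1, 1.15, 0.294 and 0.6 CPM in YAP1-FAM118B, and 0.241, 0.133 and 13.9 CPM in YAP1-TFE3. The libraries with the most Cd8a in YAP1-MAMLD1-dR3R1 and YAP1-TFE3, replicates 2 and 3 and replicate 3, were also those with the most of each class I gene. Class II genes, which antigen-presenting cells use, were higher in 8, 7 and 8 of 8 cases, with H2-Ab1 at 2.26 CPM in naive cortex and 2074, 317 and 293 CPM in the tumours. The H2-Ab1 mean of YAP1-TFE3 came from libraries at 27.3, 44.1 and 807 CPM, and its replicates 1 and 2 lay below YAP1-FAM118B (168 to 444 CPM).

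The genes whose log2 CPM over the 12 libraries was most like the mean of the 10 members were Ifi35, Eif2ak2, Trim12c, H2-Q4 and Ikzf1, at a Pearson r of 0.994 to 0.992. Over the 9 tumour libraries they were Ube2l6 (0.996), H2-Q5 (0.996), Gm6548 (0.987), Erap1 (0.985) and Parp10 (0.984). Erap1, the aminopeptidase that trims peptides in the endoplasmic reticulum, rose over naive by a log2 fold change of 3.59, 3.16 and 1.62 in YAP1-MAMLD1-dR3R1, YAP1-TFE3 and YAP1-FAM118B (edgeR adjusted p = 7.78e-05, 9.97e-05 and 0.0125). Ikzf1 is a factor of lymphoid and myeloid cells. With 9 to 12 points that share the groups, these correlations are descriptions.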

How the data were processed

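RNA of 12 mouse samples (naive cortex and 3 fusion tumours, 3 libraries each) was sequenced. The authors deposited raw read counts, a row per gene symbol; per the submitters' processing notes these came from HTSeq and build mm10. Its version, the aligner, the annotation, the use of strand and any filter: not given in the sources used here. The labels' protocols describe an extraction from cultures, while the series text describes frozen tumours.

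Genes were kept with filterByExpr of edgeR 4.0.16 (limma 3.58.1, R 4.3.3) at a minimum count of 10, which left 16364 of 24421, and libraries were scaled with TMM. A quasi-likelihood model was fitted to all 12 libraries with edgeR, and 6 contrasts were tested, with p-values adjusted over all genes by the Benjamini-Hochberg method and a threshold of 0.05. The SE is the log2 fold change divided by the square root of F, and intervals of 95% come from the t distribution with the residual degrees of freedom. Log2 CPM used a prior count of 2. The fit was tested on simulated data. Settings tried were DESeq2 1.42.0, other scalings and filters, robust dispersions, a test against a 2-fold change, fits of only the groups compared, a replicate block and leaving libraries out.

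Symbols were matched by name to RefSeq for GRCm38.p6 (23204 of 24421) and to GENCODE M21 (23376), all 10 members in both; GENCODE gave transcript lengths (the longest principal transcript) and shared exonic bases, RefSeq gave coordinates and promoters. Motifs were searched as exact matches with Python 3.11.15. The members and lists were chosen with earlier results of these data known. From each list the text names up to 3 genes called in the same direction in all fusions by their largest adjusted p, up to 2 going against the majority, and genes of at least 10 CPM called in none. H2-Q5, H2-M2, H2-Q6, H2-Q7, Cd8a, Ifng, the standard catalytic subunits and single examples beyond the rule were named after their values were seen.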

Additional observations from a re-analysis of the deposited data

How the results depend on the processing

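Of 230 values per comparison (10 genes under 23 other settings), all kept direction and call for YAP1-MAMLD1-dR3R1 and YAP1-TFE3 against naive, and 229 for YAP1-FAM118B. Between YAP1-FAM118B and YAP1-MAMLD1-dR3R1 40 lost the call, between YAP1-TFE3 and YAP1-FAM118B 23 did, and between YAP1-TFE3 and YAP1-MAMLD1-dR3R1 10 gained one. With a test against a 2-fold change the number of members called was 0 between YAP1-FAM118B and YAP1-MAMLD1-dR3R1 and 3 between YAP1-TFE3 and YAP1-FAM118B; without both libraries that hold Xist and Ddx3y it was 3 for the first. Leaving out each library gave 6 to 10 for YAP1-FAM118B against YAP1-MAMLD1-dR3R1, 4 to 7 for YAP1-TFE3 against YAP1-FAM118B and 0 to 7 for YAP1-TFE3 against YAP1-MAMLD1-dR3R1. The log2 fold change turned its sign without YAP1-TFE3 replicate 3 for Psmb8 (−0.18 to 1.54 over the libraries left out) and Psmb9 (−0.70 to 1.45) against YAP1-FAM118B and for Tapbp (−0.021 to 0.47) against YAP1-MAMLD1-dR3R1. Tap2 between YAP1-TFE3 and YAP1-FAM118B lost its call under 17 of 23 settings (adjusted p 0.0507 to 0.344 in edgeR). The cause of these changes was not tested.

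Whether the replicate numbers pair the samples cannot be decided from 3 libraries per group. The correlation of deviations of same-numbered libraries was −0.111 to 0.324, highest for replicate 3 of YAP1-TFE3 and YAP1-MAMLD1-dR3R1. No comparison had it above 0.1 for all 3 numbers. With the replicate block 10, 9 and 10 members were called against naive, 9 between YAP1-FAM118B and YAP1-MAMLD1-dR3R1, 6 between YAP1-TFE3 and YAP1-FAM118B and 0 between YAP1-TFE3 and YAP1-MAMLD1-dR3R1.

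Over all genes tested, the number called between YAP1-FAM118B and YAP1-MAMLD1-dR3R1 was 4293, with 8 in the test against a 2-fold change, 1010 without both libraries that hold Xist and Ddx3y, and 1666 to 5069 without a library, moved most by replicates 2 and 3 of YAP1-MAMLD1-dR3R1 and 1 and 2 of YAP1-FAM118B. For YAP1-FAM118B against naive it was 4861, with 1639 in the test against a 2-fold change and 2979 to 5475 without a library, moved most by YAP1-FAM118B replicates 1 and 3. That test gave 5053 of 10339 for YAP1-MAMLD1-dR3R1 and 6538 of 11547 for YAP1-TFE3 against naive, 3092 of 8460 for YAP1-TFE3 against YAP1-FAM118B and 1561 of 6456 against YAP1-MAMLD1-dR3R1. The share of calls that were higher for YAP1-FAM118B against naive was 71.6%, 62.5 to 77.7% with other scalings alone and 57.3% with DESeq2, which also changes the test. Scaling moved this share from 54.2% to 41.3% (library size only) for YAP1-TFE3 against YAP1-FAM118B, and from 57.2% to 42.0% (library size only) and 45.7% (upper quartile) against YAP1-MAMLD1-dR3R1. Other scalings moved the median log2 fold change over all genes by up to −0.214. Depth limits the naive levels of Nlrc5 (12 to 14 reads) and Psmb9 (18 to 32 reads).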
